A study of Homo sapiens with 16 samples.

Results

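Bidirectional promoters are stretches of DNA from which a pair of genes is transcribed in opposite directions, and the binding there of the hypoxia-inducible transcription factors, HIF-1 and HIF-2, was examined in 4 human cancer cell lines: A549 (lung), HCT116 (colorectal), PC3 (prostate) and T47D (breast). All cells, with no well-oxygenated group among the libraries used, were exposed to hypoxia (0.5% oxygen, 16 hours) before immunoprecipitation of either HIF-1α or HIF-2α, the oxygen-regulated subunits of these factors, called isoforms below. For every combination of line and isoform, 8 groups in all, there were 2 libraries, and each library gave 1 list of peaks, the regions in which precipitated DNA accumulates. The labels do not say that replicates were separate cultures, so p-values for isoforms measure the spread between these libraries. Those for kinds of promoter average the replicates and measure the spread between the 8 groups, in which each line appears once per isoform.

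The 23398 peaks of the 16 lists (275 to 4505 per library) were merged into 11664 sites wherever they overlapped by at least 1 bp. A site was taken to lie at a bidirectional promoter when its centre was within 1000 bp of the transcription start sites of protein-coding genes on opposite strands that diverged and were at most 1000 bp apart. This rule, which uses position and no measured level, found 525 sites. A further 4795 sites lay within 1000 bp of another protein-coding start site, giving 5320 promoter sites, and 6344 sites lay near none. Just inside the limit on the distance between start sites were SMIM7/TMEM38A (995 bp) and TXNDC9/EIF5B (986 bp), and close outside it was TSR1/SGSM2 (1044 bp). Just inside the limit on the distance from the site's centre was FBXW5/C8G (972 bp) and just outside was UBQLN4/LAMTOR2 (1003 bp). Sites are named here by the gene on the minus strand and then the gene on the plus strand. The lists give no read depth, so a peak missing from a list is not evidence of absent binding.

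Genes that share such a promoter are often housekeeping genes with functions in DNA repair, RNA processing, protein folding or mitochondria, and their promoters are usually rich in CpG dinucleotides. HIF-1α and HIF-2α each pair with HIF-1β and contact a short core sequence, the hypoxia response element, which reads ACGTG in one of its forms and GCGTG in the other. On the opposite strand these forms read CACGT and, for the second of them, CACGC. The palindrome CACGTG holds overlapping cores on both strands. HIF-1 is best known for activating glycolytic genes from sites close to promoters, whereas HIF-2 is often found at more distant enhancers.

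Stretches that lie between diverging start sites, outside any annotated exon, are shown for 6 named sites that held a core sequence there, because these are among the most widely bound members. Cores on either strand are in capitals, letters run from 5′ to 3′ along the plus strand of GRCh37, and the coordinates are of the stretch printed.
LRP2BP/ANKRD37, chr4:186317597-186317871, plus strand: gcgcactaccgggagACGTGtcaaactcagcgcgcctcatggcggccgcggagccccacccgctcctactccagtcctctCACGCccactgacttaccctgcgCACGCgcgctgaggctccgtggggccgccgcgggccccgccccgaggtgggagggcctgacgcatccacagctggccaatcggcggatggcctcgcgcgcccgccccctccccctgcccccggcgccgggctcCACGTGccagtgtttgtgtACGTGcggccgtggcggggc
ZBTB25/ZBTB1, chr14:64970819-64970853, plus strand: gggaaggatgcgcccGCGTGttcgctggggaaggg
NGLY1/OXSM, chr3:25831531-25831580, plus strand: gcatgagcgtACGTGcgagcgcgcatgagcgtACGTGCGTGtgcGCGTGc
MIX23/FAM162A, chr3:122102922-122103007, plus strand: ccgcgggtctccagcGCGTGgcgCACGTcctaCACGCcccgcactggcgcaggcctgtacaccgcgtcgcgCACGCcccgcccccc
LONP1/CATSPERD, chr19:5720177-5720229, plus strand: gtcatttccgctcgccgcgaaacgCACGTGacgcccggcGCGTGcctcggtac
CGGBP1/ZNF654, chr3:88108199-88108404, plus strand: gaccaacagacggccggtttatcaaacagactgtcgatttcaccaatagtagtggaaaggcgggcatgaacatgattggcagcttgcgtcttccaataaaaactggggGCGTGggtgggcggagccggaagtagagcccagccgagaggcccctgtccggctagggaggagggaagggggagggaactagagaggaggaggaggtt
The LRP2BP/ANKRD37 stretch held 6 matches, of which CACGTG counts as a pair of overlapping ones, and the NGLY1/OXSM and MIX23/FAM162A stretches held 4 each. LONP1/CATSPERD held 3, again including a CACGTG, whereas the printed parts of ZBTB25/ZBTB1 and CGGBP1/ZNF654 held 1. Most printed parts are shorter than the whole stretch between start sites, so these counts do not rank the sites. Between the start sites as a whole, LRP2BP/ANKRD37 held 13 cores, ZBTB25/ZBTB1 7 and LONP1/CATSPERD 6. MIX23/FAM162A held 5, NGLY1/OXSM 4 and CGGBP1/ZNF654 1. The 200 bp around the site's centre held 3, 6 and 4 at LRP2BP/ANKRD37, NGLY1/OXSM and LONP1/CATSPERD and none at the others. A match of this kind is common: 66.1% of the 1364 annotated bidirectional promoters and 52.3% of the 16996 other promoters held at least 1 within a window of 300 bp. The bidirectional promoters were also richer in CpG, with a median of 74 against 55.

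The first question was whether bidirectional promoters took the same share of promoter sites for both isoforms. They took a larger share in HIF-1α than in HIF-2α libraries. In A549 the share was 9.68% and 10.4% in the HIF-1α libraries (18 and 34 sites) and 3.54% and 4.46% in the HIF-2α libraries (7 and 10 sites). In HCT116 it was 11.4% and 9.38% for HIF-1α (351 and 279 sites) and 8.63% and 6.34% for HIF-2α (36 and 18 sites). These were the closest values of the 4 lines, and in neither line did the libraries of the isoforms overlap. In PC3 the share was 9.92% and 11.4% for HIF-1α (90 and 246 sites) and 4.88% and 5.74% for HIF-2α (2 and 19 sites). In T47D it was 13.7% and 11.6% for HIF-1α (69 and 54 sites) and 2.70% and 4.55% for HIF-2α (2 and 4 sites). Across lines too, every HIF-1α library lay above every HIF-2α library, although the HIF-2α shares rest on 2 to 36 sites.

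**Figure D1:**
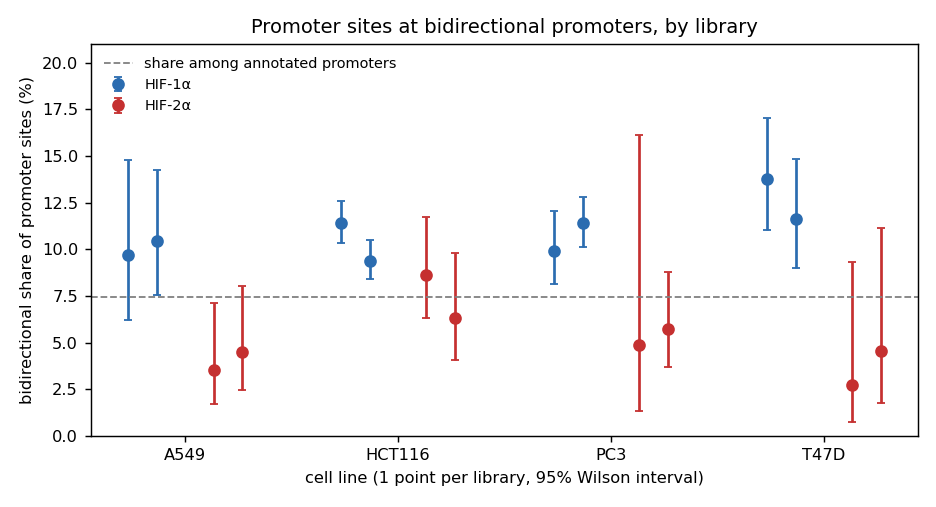
Bidirectional share of promoter sites (vertical axis, percent) in each of the 16 libraries, grouped by cell line, with blue points for HIF-1α, red points for HIF-2α and bars for 95% Wilson intervals. The 8 HIF-1α libraries sit between 9.38% and 13.7% and the 8 HIF-2α libraries between 2.70% and 8.63%. The dashed line marks 7.43%, the share among annotated promoters, which counts promoters and not sites.

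Averaged over the 4 lines, the share was 5.84 percentage points higher for HIF-1α, and it was higher in 4 of 4 lines (two-sided exact permutation test exchanging isoform labels within lines, p = 0.00154, the smallest that the test allows, adjusted p = 0.0139 over 9 tests). The difference was largest in T47D (9.05 points), followed by A549 (6.05), PC3 (5.36) and HCT116 (2.91). With 1 start site per gene in place of all annotated ones, 298 sites remained members and the difference was 3.32 points, positive in 3 of 4 lines (exact permutation p = 0.00617). When only sites present in both replicates were counted, HCT116 showed 10.7% for HIF-1α and 10.3% for HIF-2α, a difference of 0.394 points, and the mean over lines was 5.15 points with an exact permutation p of 0.13, the smallest that 4 lines allow. Among 18360 annotated promoters 1364 (7.43%) were bidirectional, which is below the share in every HIF-1α library and above it in all HIF-2α libraries except HCT116 replicate 2. The units differ. A diverging pair, or a gene in no pair, counts there as 1 promoter whatever its number of start sites, whereas libraries count sites. The 7.43% is therefore not an expected share of sites. Wilson intervals here and below cover counting error only.

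CpG content, which is high at these promoters, was compared directly. Bidirectional sites had a median of 87 CpG dinucleotides in 1000 bp, other promoter sites had 89 and sites near no start site had 18. A threshold of 87 was chosen after the data were seen. Among promoter sites with at least 87, the share of bidirectional sites was 4.61 points higher for HIF-1α (4 of 4 lines, exact permutation p = 0.00309). The part of CpG content in the isoform difference was not tested.

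Occupancy was then counted from the promoters' side, as the percentage of all annotated promoters of a class with a peak. In HCT116 HIF-1α libraries 25.9% and 20.3% of bidirectional promoters had a peak, against 15.7% and 15.5% of other promoters. In PC3 the values were 6.45% and 18.2% against 4.74% and 11.03%, in T47D 4.91% and 3.96% against 2.54% and 2.41%, and in A549 1.32% and 2.49% against 0.953% and 1.70%. Bidirectional promoters were thus the more often occupied class in 8 of 8 HIF-1α libraries. In HIF-2α libraries they were the less often occupied class in 7 of 8, with 0.513% and 0.733% against 1.06% and 1.16% in A549 and 0.147% and 0.293% against 0.394% and 0.465% in T47D. The exception was HCT116 HIF-2α replicate 2, with 2.57% against 2.14%.

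**Figure D2:**
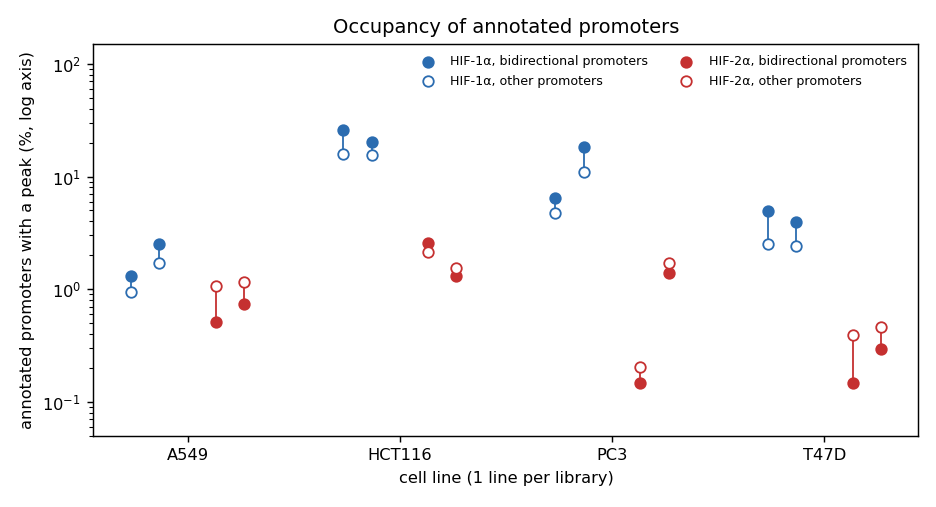
Percentage of annotated bidirectional promoters (filled circles) and other promoters (open circles) with a peak in each library, on a log axis, joined by 1 line per library and grouped by cell line, HIF-1α in blue and HIF-2α in red. The filled circle is the higher in 8 of 8 HIF-1α libraries and the lower in 7 of 8 HIF-2α libraries.

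As a ratio, occupancy of bidirectional over other promoters was 1.43 ± 0.0576 for HIF-1α and 0.559 ± 0.105 for HIF-2α in A549 (mean ± SD, n = 2 for each value here). T47D had 1.79 ± 0.206 and 0.501 ± 0.183, PC3 had 1.504 ± 0.203 and 0.763 ± 0.0718, and HCT116 had 1.48 ± 0.237 and 1.03 ± 0.242. The mean log2 ratio was 0.62 for HIF-1α and -0.57 for HIF-2α, a difference of 1.19 in the same direction in 4 of 4 lines (two-sided exact permutation test added after the data were seen, p = 0.00154, adjusted p = 0.0054 over 7 added tests). Occupancy counts the same peaks as the bidirectional share above, so this result largely restates that one and is not independent of it. Both isoforms pooled, occupancy of the classes differed by 1.71 points without passing the test (exact sign flips over 8 groups, a permutation test, p = 0.156, adjusted p = 0.234).

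Annotated bidirectional promoters were themselves richer in CpG than other promoters, with a median of 74 against 55 in 1000 bp. After other promoters were weighted to the CpG content of the bidirectional ones, the occupancy ratio for HIF-1α fell to 1.33 ± 0.163 in T47D, 1.16 ± 0.127 in PC3, 1.12 ± 0.169 in HCT116 and 1.09 ± 0.0633 in A549 (mean ± SD, n = 2 each). For HIF-2α it was 0.437 ± 0.188, 0.677 ± 0.00472, 0.808 ± 0.175 and 0.463 ± 0.0785 in the same order. The difference between isoforms in the log2 ratio was then 1.04 (exact permutation p = 0.00154). With this weighting the lowest HIF-1α ratio in a library was 1.002, in HCT116 replicate 3, and all 8 HIF-2α libraries lay below 1. The part of CpG content in the isoform difference was not tested here either.

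Over the 16 libraries, 467 of the 525 bidirectional sites (89.0%, where 60.9% of all 11664 sites did so) had HIF-1α peaks only. A further 50 (9.52%, against 13.8% of all sites) had peaks of both isoforms and 8 (1.52%, against 25.2%) had HIF-2α peaks only. Other promoter sites were closer to the bidirectional ones. Of these, 80.8% had HIF-1α peaks only, 14.8% had both and 4.44% had HIF-2α peaks only. Any HIF-2α peak was present at 58 bidirectional sites (11.05%, Wilson 95% interval 8.64 to 14.0) and at 922 other promoter sites (19.2%, 18.1 to 20.4). Without HCT116 HIF-2α replicate 2 the number of such bidirectional sites was 38, and without all HCT116 libraries it was 27. The share was lower at bidirectional sites in each line. T47D had 5.81% against 18.7%, PC3 7.12% against 14.6%, HCT116 9.17% against 13.7% and A549 27.9% against 55.8%. These values describe the same lists as the share above and are not independent of it. In T47D 0 of 86 bidirectional sites had HIF-2α alone (Wilson upper limit 4.28%), against 40 of 610 other promoter sites.

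**Figure D3:**
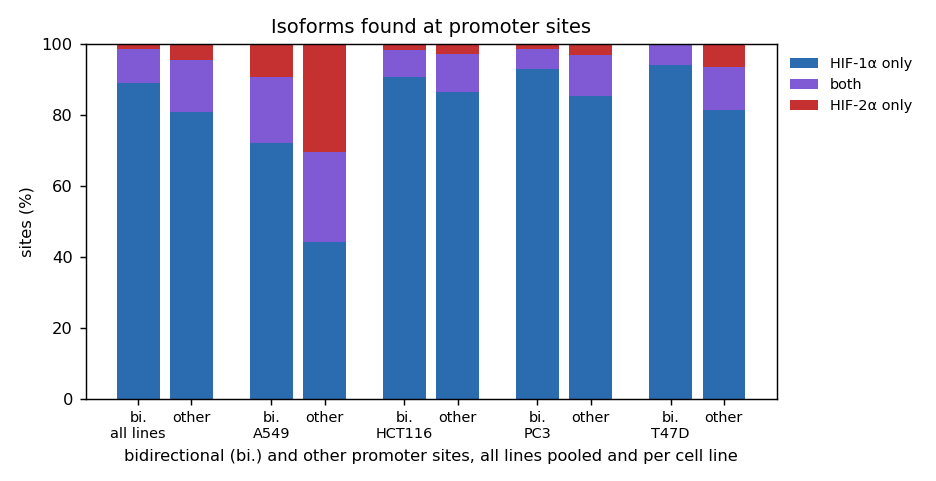
Percentage of bidirectional (bi.) and other promoter sites with HIF-1α peaks only (blue), peaks of both isoforms (purple) or HIF-2α peaks only (red), for all lines pooled and for each cell line. In each pair of bars the bidirectional sites have the larger share of HIF-1α only, 89.0% against 80.8% for all lines pooled.

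The 8 sites with HIF-2α alone each had a peak in 1 library, 7 of them in HCT116 and 1, FOXA1/TTC6, in PC3 (score percentile 11.6). A score percentile is the percentage of peaks in the same library with a score at or below that of the peak, so 100 is the strongest. ORMDL3/LRRC3C, whose first gene encodes a regulator of sphingolipid synthesis, ranked highest of the 8 at 71.8. TSR3/GNPTG was next at 48.8, and EIF2AK3/RPIA, which joins an unfolded protein response kinase to a pentose phosphate enzyme, was at 18.98. Thus, 50 of the 58 bidirectional sites with HIF-2α (86.2%) also had HIF-1α in some library, compared with 709 of 922 (76.9%) at other promoters. Sites with peaks of both isoforms were also the stronger HIF-1α sites: their median HIF-1α percentile was 68.9, compared with 43.6 at bidirectional sites with no HIF-2α peak. At other promoter sites these medians were 64.8 and 41.5.

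A total of 308 bidirectional sites (58.7%) were found in 1 cell line, as were 76.6% of all sites and 67.0% of other promoter sites, and 150 (28.6%, against 22.0% of other promoter sites) in 2 lines. There were 44 in 3 lines and 23 in all 4 (4.38%, where 2.76% of all sites and 4.46% of other promoter sites were). Of the members found in 1 line, 230 were in HCT116 (43.8% of members, against 43.4% of all sites found only there), 70 in PC3 (13.3%, against 17.9%), 5 in T47D (0.952%, against 6.22%) and 3 in A549 (0.571%, against 9.02%). Few other promoter sites were found only in T47D (1.88%) or A549 (1.48%) either, with 48.5% only in HCT116 and 15.1% only in PC3. Both replicates of at least 1 group held 223 members (42.5%, against 31.7% of all sites and 40.6% of other promoter sites), and 14 members (2.67%, against 2.69% of all sites and 3.61% of other promoter sites) were in 8 libraries or more. No member was present in both replicates of all 8 groups, as were 14 of 4795 other promoter sites (0.292%) and 24 of all 11664 sites (0.206%). With shares this low and only 525 members, nothing is read from this count. These differences in breadth were not tested.

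The most widely found member was RRP12/PGAM1 (chr10:99183795-99186840), in 15 of 16 libraries. PGAM1 encodes the glycolytic enzyme phosphoglycerate mutase and RRP12 a factor of ribosome assembly. Its score percentiles in HIF-1α libraries were 99.8 and 99.9 in HCT116, 99.6 and 99.7 in both PC3 and T47D, and 98.2 and 97.9 in A549. In HIF-2α libraries they were 98.4 and 97.6 in HCT116, 88.9 and 92.7 in T47D, 89.5 in 1 PC3 library, and 59.2 and 84.4 in A549. The HIF-2α percentile was therefore the lower one within each line. The centre of this site lay inside RRP12, 515 bp from its start site and 630 bp from that of PGAM1, and the 115 bp between the starts held no core sequence, while the 200 bp around the site's centre held 2. With a window of 500 bp it was no longer a member.

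LRP2BP/ANKRD37 (chr4:186316714-186318666) had peaks in 14 libraries. ANKRD37 encodes an ankyrin repeat protein known for its induction by hypoxia, and LRP2BP a partner of the endocytic receptor megalin. Its percentiles for HIF-1α were 100 in both T47D libraries, where it was the strongest peak, 99.98 in both HCT116 libraries, 99.9 in both PC3 libraries, and 97.1 and 99.4 in A549. For HIF-2α they were 97.5 and 97.7 in HCT116, 92.5 in 1 PC3 library, 77.7 and 82.7 in A549, and 62.5 in 1 T47D library. HIF-2α again ranked lower in every line. The start sites lay 917 bp apart with the site's centre between them, and this stretch held 13 core sequences in all; with a window of 500 bp this site also dropped out.

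ZBTB25/ZBTB1 (chr14:64968632-64973720), which joins the genes of a pair of zinc finger transcription factors, differed in its order of isoforms. In A549 its percentiles were 98.4 and 95.6 for HIF-2α and 86.8 and 89.8 for HIF-1α, so both HIF-2α libraries ranked above both HIF-1α libraries. In HCT116 the order was the other way, with 98.5 and 97.9 for HIF-1α and 85.7 and 74.4 for HIF-2α. PC3 gave 94.3 and 97.8 for HIF-1α and 34.9 and 77.4 for HIF-2α, and T47D gave 73.5 and 77.5 for HIF-1α with no HIF-2α peak. The merged interval was 5089 bp wide, where the median of members was 1481 bp. As at every named site, the percentile is that of the library's best-scoring peak in the interval. Values of different libraries can therefore belong to different peaks. With 2 libraries per group these ranks were not tested, and with 1 start site per gene this site was no longer a member.

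FAM210A/RNMT, near the genes of a mitochondrial protein and of the mRNA cap methyltransferase, was found in 12 libraries. Its percentiles were 99.4 and 99.0 for HIF-1α and 92.3 and 94.1 for HIF-2α in HCT116, but 73.0 in 1 HIF-1α and 32.9 and 53.4 in 2 HIF-2α libraries in A549. NGLY1/OXSM (chr3:25830926-25832302), for a deglycosylating enzyme and a mitochondrial fatty acid synthase, was also in 12 libraries, but with lower ranks: 12.6 to 95.3. MIX23/FAM162A, both mitochondrial proteins, was in 11 libraries, with HIF-1α percentiles of 86.0 to 99.4 and HIF-2α percentiles of 94.8 and 86.2 in HCT116, 59.9 in PC3 and 30.2 in T47D.

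**Figure D4:**
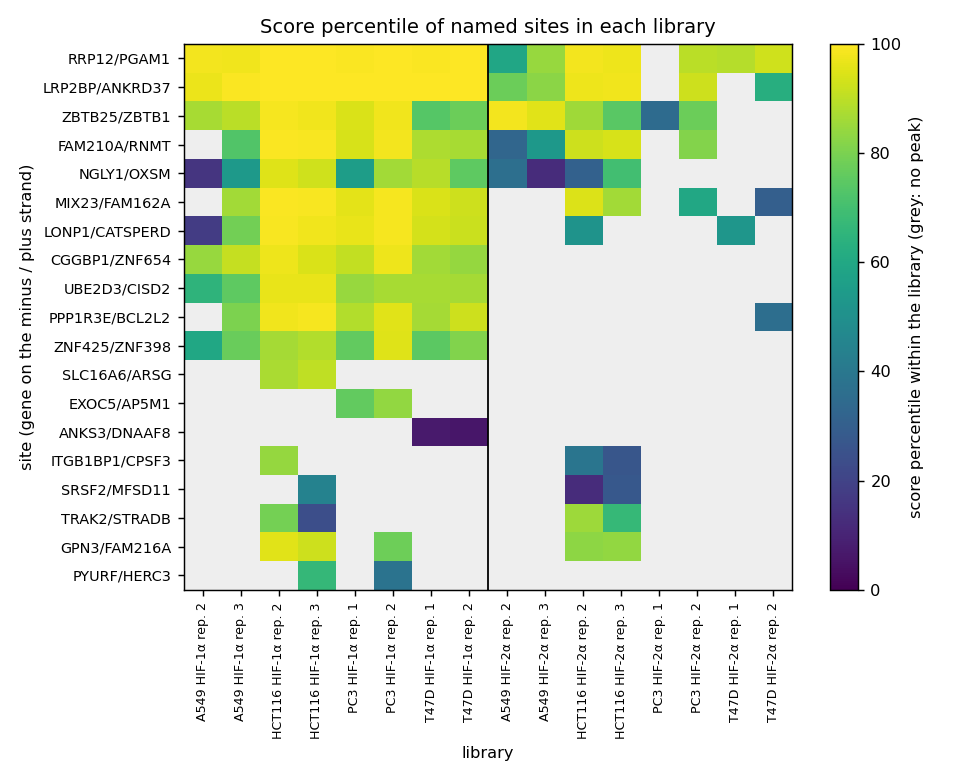
Score percentile of 19 named bidirectional sites (rows, gene on the minus strand / gene on the plus strand) in each of the 16 libraries (columns, HIF-1α left of the black line and HIF-2α right), with grey for no peak. RRP12/PGAM1 and LRP2BP/ANKRD37 are at 97.1 or above in all 8 HIF-1α libraries, and CGGBP1/ZNF654, UBE2D3/CISD2 and ZNF425/ZNF398 have no peak in any HIF-2α library.

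LONP1/CATSPERD, whose first gene encodes the mitochondrial matrix protease LON and whose second encodes a sperm calcium channel subunit, had peaks in 8 HIF-1α libraries and 2 HIF-2α libraries. Its HIF-1α percentiles were 91.8 to 98.9 in HCT116, PC3 and T47D and 17.6 and 78.7 in A549, and its HIF-2α percentiles were 51.5 in HCT116 replicate 2 and 52.6 in T47D replicate 1. CGGBP1/ZNF654, near the gene of a CGG repeat binding protein, had HIF-1α percentiles of 84.1 to 97.6 in 8 of 8 libraries and no HIF-2α peak in 8. The same was true of UBE2D3/CISD2, a ubiquitin-conjugating enzyme and an iron-sulfur protein (65.0 to 96.7), and of ZNF425/ZNF398, both zinc finger proteins (59.5 to 94.9). PPP1R3E/BCL2L2, a glycogen-targeting phosphatase subunit and an anti-apoptotic protein, had peaks in 7 HIF-1α libraries (80.1 to 98.6) and in T47D HIF-2α replicate 2 (36.3).

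HIF-2α peaks in both replicates of a line were found at 14 members, and for all 14 that line was or included HCT116. A549 had 5 such sites, PC3 had 2 and T47D had 1, RRP12/PGAM1. These made up 2.67% of members in HCT116 (2.54% of other promoter sites), 0.952% in A549 (2.86%), 0.381% in PC3 (0.667%) and 0.190% in T47D (0.876%), a comparison given without a test. Those with the fewest HIF-1α libraries were ITGB1BP1/CPSF3, SRSF2/MFSD11, TRAK2/STRADB and GPN3/FAM216A. CPSF3 encodes the endonuclease of mRNA 3′ end formation, SRSF2 a splicing factor, STRADB a partner of the kinase LKB1 and GPN3 a factor of RNA polymerase II assembly. Their HIF-2α percentiles in HCT116 were 38.9 and 26.6, 12.7 and 27.4, 85.4 and 67.1, and 83.2 and 83.9 in that order, and each also had a HIF-1α peak in at least 1 HCT116 library. None of the 14 lacked HIF-1α, where 50 of all 58 members with any HIF-2α peak (86.2%) had it. The matching count for replicated HIF-2α sites at other promoters is not given here.

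Some members were found in both HIF-1α replicates of a single line and in no other library. The best-ranked was SLC16A6/ARSG in HCT116 (87.1 and 90.5), for a monocarboxylate transporter and a sulfatase, followed by EXOC5/AP5M1 in PC3 (76.1 and 83.8), for proteins of vesicle traffic. In T47D it was ANKS3/DNAAF8, at only 7.10 and 6.06, and A549 had none.

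The features of members given here lie within the limits that the rule set. Where several pairs of start sites qualified, the pair shown was chosen by a fixed order. Pairs of canonical transcripts came first, then pairs without readthrough or unnamed genes, then the smallest gap. This choice contributes to the distances and to the share of canonical pairs. The pair of start sites was a median of 195 bp apart (quartiles 97 and 377, n = 525), close to the 191 bp of all 1364 annotated bidirectional promoters. The site covered both start sites in 491 cases (93.5%), and its centre lay between them in 199 (37.9%). Inside the minus-strand gene lay 164 centres and inside the plus-strand gene 162, and 263 were nearer the minus-strand start and 261 nearer the plus-strand start. The start sites belonged to canonical transcripts of both genes in 352 cases (67.0%), and elsewhere at least one was an alternative start. The distance to the nearest start site was a median of 59 bp at members and 137 bp at other promoter sites, a difference to which the rule contributes, since a member has start sites of at least 2 genes within the window.

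**Figure D5:**
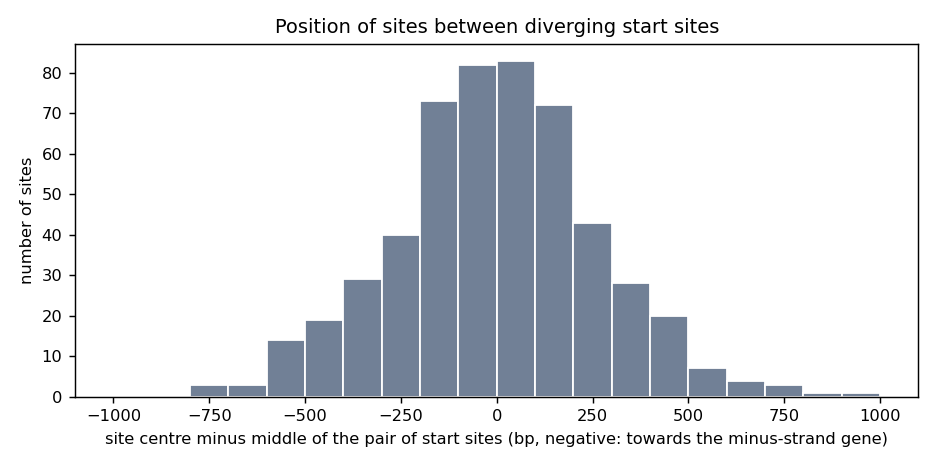
Number of bidirectional sites (vertical axis, 525 in all) by the distance of the site's centre from the middle of the pair of start sites, in bins of 100 bp, with negative values towards the minus-strand gene. The distribution is centred near 0 and is about as wide on either side, with a median absolute distance of 166 bp.

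Peaks of HIF-1α lay a median of 164.5 bp from the middle of the pair (1141 peaks pooled over libraries) and those of HIF-2α 227 bp (98 peaks). Library medians were 138.5 to 208.25 bp for HIF-1α and 97.5 to 300.75 bp for HIF-2α. HIF-1α lay nearer in HCT116, PC3 and T47D but not in A549, and the mean difference of -56.6 bp did not pass the test (exact permutation p = 0.0556, adjusted p = 0.13). Median score percentile differed between bidirectional and other promoter peaks by -0.888 points (exact permutation p = 0.477, adjusted p = 0.613) and replicate concordance by 0.224 points (exact permutation p = 0.945, adjusted p = 0.945). Peak width differed by 37.03 bp (exact permutation p = 0.117, adjusted p = 0.211), and the share of the sites of a class, as known from all libraries, that a library detected by 0.399 points (exact permutation p = 0.656, adjusted p = 0.738). None of these 4 class differences passed the test.

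The core sequence was present in the central 200 bp of 317 members (60.4%, where 50.5% of all sites held it), compared with 57.7% of other promoter sites and 44.3% of sites near no start site. Among annotated bidirectional promoters, 75.4% of the 529 with a peak in any library held it within 300 bp, against 60.2% of the 835 with none. At other promoters the values were 65.3% and 47.5%. Promoters with a peak were also richer in CpG, which every core contains. The median was 87 against 69 at bidirectional and 79 against 43 at other promoters. The part of CpG content in these contrasts was not tested. By library, the percentage of member peaks with a core in their central 200 bp was 62.1% to 79.6% for HIF-1α and 63.2% to 100% for HIF-2α. The values of 100% came from 3 libraries with 2, 2 and 4 member peaks. The isoforms differed by -14.7 points (exact permutation p = 0.0170, adjusted p = 0.0509), and by -3.88 points (exact permutation p = 0.519) when the 4 libraries with fewer than 10 member peaks were left out, a choice made after the data were seen. Bidirectional peaks held a core 9.05 points more often than other promoter peaks over the 8 groups (exact permutation p = 0.0156, adjusted p = 0.0509), but 0.599 points more often when the whole peak was searched. Neither difference passed the adjusted threshold.

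By function, 1069 of the 2825 genes in annotated diverging pairs (37.8%) had a member site. Of 49 DNA repair genes 23 were in such pairs and 9 had a member site. All 9 had HIF-1α alone, as had 467 of all 525 members (89.0%), so this is not particular to these genes. The mismatch repair genes PMS1 and PMS2 had sites in 3 libraries each, and PRKDC, the catalytic subunit of the DNA-dependent protein kinase, likewise, whereas ATM, LIG1, RAD50 and RAD51C had a site in 1 library each. Of 22 chaperone genes 12 were paired and 4 had a member site. Of these, HSPD1 and HSPE1, the mitochondrial chaperonins that share a single promoter, had HIF-1α peaks in 5 libraries of 3 lines (mean percentile 68.8) and no HIF-2α peak.

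Of 78 mitochondrial ribosomal protein genes 29 were paired and 7 had a member site, of which HIRA/MRPL40 was in 6 HIF-1α libraries of 3 lines and 5 others were in 1 library each. Of 40 proteasome genes 10 were paired and 3 had a site, PSMA1, PSMA7 and PSMD13. PSMA1/PDE3B, in 2 libraries at a mean percentile of 9.11, was the only one with a HIF-2α peak. Of 16 glycolytic genes, 2 were in pairs, PGAM1 and PFKM, and both had a member site, SENP1/PFKM in 1 HIF-1α library. The counts per list, 39.1% of paired DNA repair genes, 33.3% of chaperones, 24.1% of mitochondrial ribosomal proteins and 30% of proteasome genes, stand beside the 37.8% of all paired genes and were not tested.

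Of the 48 genes that the study listed as common HIF targets, 47 were found in the annotation, 4 were in a diverging pair and all 4 had a member site. The list was chosen partly on these libraries, so this count is not independent evidence. ANKRD37, PGAM1 and LONP1 were at widely found sites, as described. HERC3, a ubiquitin ligase gene, was at PYURF/HERC3, which had 2 peaks, in HCT116 HIF-1α replicate 3 (66.5) and PC3 HIF-1α replicate 2 (37.9), and was in both replicates of no group.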

How the data were processed

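HIF-1α and HIF-2α ChIP-seq peak lists of 16 libraries were used. Per the labels and the methods of the study, the authors trimmed reads, aligned them to GRCh37 with BWA 0.7.5a-r405, removed low-quality, blacklisted and duplicate reads, and called peaks with T-PIC and with MACS run against a control, keeping those of both callers that exceeded a random background. The deposited peaks carry MACS names. Serum from before immunization served as the negative control in ChIP, and the MACS version and the control given to it are not given in the sources used here. Each deposited peak carries a score from the authors' peak caller, which starts at about 50 in every list. Its scale is not stated, so it was used only to rank peaks within a library. Lists hold peaks absent from the other replicate, so the study's later replicate filter was not part of them.

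Scripts ran in Python 3.11.15 (pysam 0.24.0, numpy 2.4.6, matplotlib 3.10.9, scipy 1.17.1). Start sites were those of protein-coding transcripts of GENCODE release 44 mapped to GRCh37. Of the peaks, 29 off the main chromosomes were left out. Isoforms were compared by two-sided exact permutation within cell lines and classes of promoter by exact sign flips over 8 groups (256 patterns, smallest p 0.00781), with Benjamini-Hochberg adjustment over 9 tests and a threshold of 0.05. Functions were tested on simulated data. Deviations of same-numbered libraries of a line correlated at 0.000602 to 0.0523 over 5320 promoter sites, under the 0.1 used here to call them paired.

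Named were the 12 members in the most libraries, the best-ranked member of each line alone, the 4 with replicated HIF-2α and fewest HIF-1α libraries, and those of the 48 genes of the study. Other genes were chosen after their values were seen. A few items are not reported here. Sequences planned as the whole stretch between start sites were restricted to parts outside exons. Members and lists were chosen with earlier results of these data known. Alternatives comprised score, list length, window, gap, start sites, overlap, CpG weighting, and leaving out libraries and lines.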

Additional observations from a re-analysis of the deposited data

Results flagged for a closer look

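Because HIF-1α and HIF-2α libraries went opposite ways in the occupancy of bidirectional promoters, the difference between isoforms in each class difference was tested after the data were seen, by two-sided exact permutation within cell lines, with adjustment over 7 tests. The tests that passed are given here.

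Occupancy, bidirectional minus other promoters, was 3.62 percentage points in HIF-1α and -0.196 in HIF-2α libraries, a difference of 3.82 points (4 of 4 lines, exact permutation p = 0.00154, adjusted p = 0.0054). The HIF-1α value was 7.51 points in HCT116 and 4.43 in PC3, which had the longest HIF-1α lists. It was 1.96 in T47D and 0.579 in A549, so the size in points is not comparable between lists of unlike length. As a log2 ratio the difference was 1.19 (4 of 4 lines, adjusted p = 0.0054 by the same exact permutation test), and 1.01 with the same number of peaks in every library. Both occupancy values count the same peaks as the bidirectional share and are not independent of it. The share of known sites of a class detected in a library differed by 4.26 points (2.53 for HIF-1α and -1.73 for HIF-2α). Known sites are those with a peak in any library, and 467 of the 525 members had HIF-1α peaks alone, so nothing is read from this value. The excess of core sequence in bidirectional over other promoter peaks was 1.85 points in HIF-1α and 16.2 in HIF-2α libraries, a difference of -14.4 (4 of 4 lines, exact permutation p = 0.00463, adjusted p = 0.0108), where 3 of the HIF-2α libraries hold 2, 2 and 4 member peaks.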

How the results depend on the processing

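Alternatives were read against an unadjusted threshold of 0.05. The larger bidirectional share of promoter sites for HIF-1α kept its direction in 31 of 31 alternatives (3.32 to 9.38 points, the highest among sites chosen for holding 1 isoform in the line, from which nothing is read) and its side of the threshold in 30, the exception being sites in both replicates with the 4 lines as units (5.15 points, exact permutation p = 0.13, the smallest possible); without 1 library it was 5.56 to 6.14. The difference between isoforms in the log2 occupancy ratio, tested after the data were seen, was 0.745 to 1.53 and passed in 26 of 26. It counts the same peaks as the share and is not independent of it. The cause of the changes below was not tested.

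Without HCT116 there were 297 members and 27 with HIF-2α, with scores at or above the median of 74.57 there were 316 and 19, with 272 peaks per library 48 and 12, and with 1 start site per gene 298 and 37; without HCT116 HIF-2α replicate 2 there were 38 with HIF-2α, and without any 1 library 424 to 527 members and 38 to 59 with HIF-2α. Pooled occupancy passed with 16 libraries as units (1.71 points, exact permutation p = 0.0200) and with 1 start site per gene (2.33 points, p = 0.0313), and was 0.515 with CpG weighting and 0.163 with equal lists.

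Detection was 0.0712 to 0.697 points without 1 library and turned to -0.973 points without HCT116, -0.0257 without PC3, -0.323 with the score minimum and -0.0704 with equal lists. Score percentile turned to 3.87 with 1 start site per gene and 0.588 with start sites at most 500 bp apart, and was -1.91 to 0.152 without 1 library. Concordance turned to -3.14 without HCT116, -1.12 without PC3, -0.700 with the score minimum, -5.44 with equal lists, -3.37 with 1 start site per gene, -4.70 with a 500 bp window, -0.112 with CpG weighting and -1.75 with 50% reciprocal overlap, and was -2.52 to 2.64 without 1 library. Width was 6.06 bp without PC3 HIF-2α replicate 1 and 76.9 bp without replicate 2, the range without 1 library, turned to -2.34 bp with the score minimum and passed without A549 (51.5 bp, exact permutation p = 0.0313). None of the reversed values passed the test.

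Both core sequence comparisons had an adjusted p of 0.0509 by exact permutation and passed only unadjusted. The excess of bidirectional over other promoter peaks did not pass even unadjusted with 4 lines as units (9.05 points, exact permutation p = 0.13), without A549 (10.4), HCT116 (9.51), PC3 (6.65) or T47D (7.47), with the score minimum (6.01), equal lists (8.40), a 500 bp window (6.11) or the whole peak (0.599). The isoform difference in members' core sequence did not pass without PC3 HIF-1α replicate 2 (-13.5, exact permutation p = 0.0664), HCT116 (-13.2), PC3 (-12.0) or T47D (-12.6), with the score minimum (-13.0) or with libraries of at least 10 member peaks (-3.88), and was -3.45 with the whole peak and -17.1 to -10.1 without 1 library. The isoform difference in the core sequence excess did not pass without PC3 (-9.41), with the score minimum (-11.3) or with 1 start site per gene (-8.95). Distance from the middle of the pair passed without A549 (-81.4 bp), with equal lists (-58.0), 1 start site per gene (-126) and a 500 bp window (-124). It was -71.8 to -41.5 without 1 library, passing without A549 HIF-2α replicate 2 (exact permutation p = 0.00154), HCT116 HIF-2α replicate 2 (p = 0.0278), T47D HIF-2α replicate 1 (p = 0.0432) or PC3 HIF-1α replicate 1 (p = 0.0494), and -8.81 bp with the score minimum (p = 0.764). With fewer lines the smallest possible p is larger.

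Site by site, deviations of same-numbered libraries correlated at 0.000602 to 0.0523, under the 0.1 used to call them paired. The bidirectional share nevertheless moved the same way between replicate numbers for both isoforms in 3 of 4 lines, by 0.752 and 0.929 points in A549, -2.03 and -2.30 in HCT116 and 1.49 and 0.862 in PC3 (HIF-1α, then HIF-2α). With the replicate number as a block the share differed by 5.84 points (exact permutation p = 0.00781), members' core sequence by -14.7 points (p = 0.0234) and the distance by -56.6 bp (p = 0.0703), and no call changed. Of the 20 named sites 18, 14, 10, 17 and 18 were members with the score minimum, equal lists, 1 start site per gene, a 500 bp window and start sites at most 500 bp apart. Depth is unknown, and each HIF-2α share rests on 2 to 36 member sites.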
